A study of Mus musculus with 37 samples.

Results

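Dendritic cells were a rare population of the injured mouse heart at day 7 after infarction. They were picked from single-nonmyocyte transcriptomes as barcodes with the MHC class II transcripts H2-Aa, H2-Ab1, H2-Eb1 and Cd74 at 1% or more of all counts, the macrophage complement genes C1qa, C1qb and C1qc under 0.1%, no count of the B cell genes Cd79a and Ms4a1, the collagen genes Col1a1, Col1a2 and Col3a1 with Dcn under 0.5%, and at least 1 count of Flt3, Cd209a, Clec9a, Xcr1, Ccr7 or Zbtb46. The rule selected 126 of 12807 barcodes, 57 of 7460 in the ENPP1CKO library and 69 of 5347 in the control library. ENPP1 is an ectonucleotidase that cleaves extracellular ATP to AMP. ENPP1CKO mice carried the tamoxifen-inducible Col1a2CreERT driver, which is active in fibroblasts, together with 2 floxed ENPP1 alleles, and received tamoxifen, and the control library is labelled wild type. Both were C57BL/6 animals with a permanently ligated left anterior descending coronary artery. There was 1 library per genotype, how many hearts went into each was not given in the sources used here, and no difference between genotypes could be tested. Intervals are exact 95% intervals and cover counting error only.

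Conventional dendritic cells sample tissue antigen, load peptides onto MHC class II molecules and carry them along the lymphatics to draining lymph nodes, where they prime T cells. The cDC1 lineage, marked by Xcr1 and Clec9a, takes up dead cells and presents their antigens on MHC class I, whereas the cDC2 lineage, marked in many tissues by Cd209a, Clec10a and Mgl2, mainly primes CD4 T cells. Either lineage can mature, and mature cells express the lymph node homing receptor Ccr7, the actin bundling protein Fscn1, chemokines and costimulatory ligands.

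Dendritic barcodes were sequenced about as deeply in both libraries. They held a median of 4870 counts (range 1544 to 11769) and 1539 genes in ENPP1CKO and of 4148 counts (range 526 to 10412) and 1459 genes in control, with mitochondrial medians of 1.87% and 1.70%. All barcodes together gave 28039559 and 22746607 counts. The targeted gene was at 391 counts in 3253 ENPP1CKO fibroblast barcodes and at 1099 counts in 1534 control fibroblast barcodes, 27.2 and 126 CPM of the fibroblasts. In the dendritic barcodes Enpp1 was at 1 and 2 counts, in 1.75% and 2.90% of barcodes, against 1.68% and 3.47% of macrophages and 9.81% and 40.4% of fibroblasts. A total of 68 barcode sequences occurred in both libraries, of which 2 belonged to a dendritic barcode in 1 library and 0 in both. Scrublet called 0 and 1 of the dendritic barcodes doublets. Markers of T or NK cells summed to 25 and 30 counts over all dendritic barcodes, neutrophil markers to 6 and 4, cardiomyocyte genes to 2 and 1, and endothelial markers to 69 and 78, of which 1 barcode of each library held 45 and 35. Mural cell markers stood at 4 counts in ENPP1CKO and 153 in control, and 141 of the latter came from 1 barcode. Fibroblast markers outside the rule, among them Sparc and Postn, were also lower in the ENPP1CKO dendritic barcodes (364 against 679 CPM, counts per 1000000 counts of the dendritic barcodes of a library), but 1 control barcode held 87 of the 218 control counts, and without the top barcode of each library the levels were 351 and 421 CPM. The part of these markers in the results below was not tested, beyond the gene counts without such barcodes in the section on processing.

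The share of dendritic barcodes was 0.764% (0.579 to 0.989) of the ENPP1CKO library and 1.29% (1.01 to 1.63) of control barcodes, which is -0.76 as a log2 ratio (-1.29 to -0.23). This order depended on what the barcodes were counted against. Fibroblasts made up 43.6% of ENPP1CKO and 28.7% of control barcodes. Among MHC class II high barcodes the dendritic share was 8.12% (6.21 to 10.4) against 11.04% (8.69 to 13.8), with overlapping intervals. Among barcodes with a count of Ptprc, the pan-leukocyte gene CD45, it was 2.87% (49 of 1708) against 2.45% (50 of 2044), a log2 ratio of 0.23 (-0.37 to 0.83).

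The values that chose the members are given as a description. MHC class II transcripts took a median of 8.80% of counts in ENPP1CKO and 7.75% in control, the member nearest the threshold stood at 1.18% and 1.05%, and the nearest barcode that failed on this criterion alone at 0.952% and 0.939%. On the complement criterion the nearest members stood at 0.0962% and 0.0786% and the nearest barcodes outside at 0.107% and 0.119%. The 6 dendritic genes summed to a median of 4 and 5 counts per barcode, and 8 and 10 members were chosen on 1 count, while 48 and 66 barcodes met every other criterion with none. By gene, Xcr1, the receptor for the chemokine XCL1, was at 47 counts in 21 ENPP1CKO barcodes and 29 counts in 12 control barcodes. Clec9a, a receptor for dead cells, was at 29 counts in 17 and 12 counts in 9 barcodes. Cd209a, a C-type lectin, was at 126 counts in 23 and 197 counts in 34 barcodes. The largest gap was in Ccr7, with 87 counts in 15 ENPP1CKO barcodes and 320 counts in 28 control barcodes. Flt3, the receptor that sustains dendritic cell development, was at 27 and 16 counts, and Zbtb46, a transcription factor of the conventional lineage, at 9 and 9.

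Genes outside the rule also set these barcodes apart. Against the 597 and 490 MHC class II high macrophages of the same libraries, the 20 genes ranked highest by dendritic over macrophage level were led by Cd7 and P2ry10 and included the natural killer type lectins Klrd1, Klrk1 and Klrb1b. In dendritic barcodes of ENPP1CKO and control in turn, Klrd1, the CD94 lectin, reached 283 and 395 CPM, against 4.42 and 2.05 CPM in macrophages, and Klrk1 (NKG2D) was at 174 and 261 against 6.39 and 3.08 CPM. Ccl22, a ligand of CCR4, was at 151 and 202 against 3.44 and 5.13 CPM, and Il12b, the p40 chain of interleukin 12, at 496 and 405 against 7.86 and 21.6 CPM. Serpinb6b, Serpinb9, Serpinb1a, Ifitm1, Jaml and Gpr171 were among the 20 genes named by the same ranking. Macrophage genes stood the other way. Apoe, the lipid carrier, was at 531 and 897 CPM in dendritic barcodes and 32908 and 36906 CPM in macrophages, and Adgre1, which encodes F4/80, Ms4a7 and Fcrls were also among the 10 lowest. These cells were chosen for low complement transcripts, so the macrophage contrast follows in part from the rule.

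**Figure D1:**
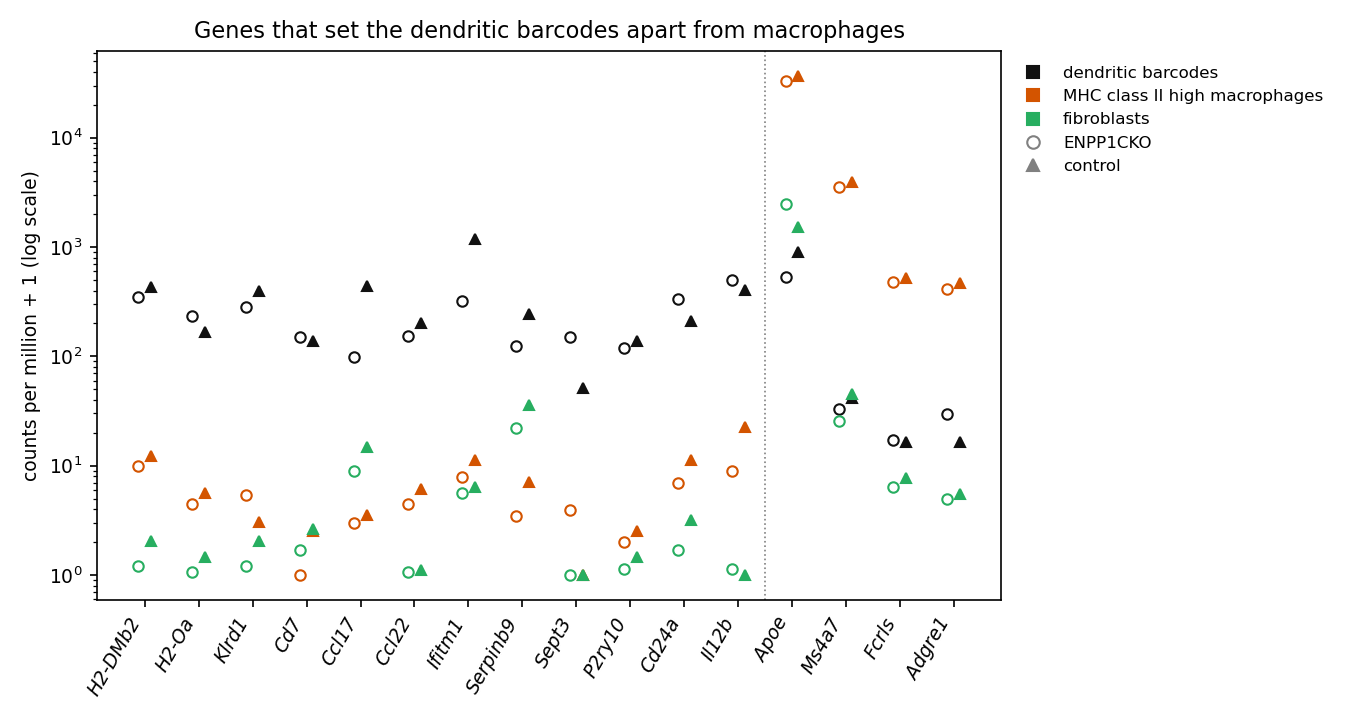
Level of 16 genes in dendritic barcodes (black), MHC class II high macrophages (orange) and fibroblasts (green), as CPM plus 1 on a log scale, with open circles for ENPP1CKO and filled triangles for control. In both libraries the 12 genes left of the dotted line lay higher in dendritic barcodes than in either other population, and the 4 to its right were highest in macrophages.

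Genes of MHC class II peptide loading were compared with macrophages in the same way. H2-DMa and H2-DMb1, the chains of the exchange factor that removes the invariant chain peptide, stood at 1343 and 1133 CPM and at 1150 and 940 CPM in dendritic barcodes of the ENPP1CKO and control libraries, against 546 and 590 CPM and 560 and 531 CPM in macrophages. H2-DMb2, a second beta chain, was at 348 and 426 CPM in dendritic barcodes against 8.84 and 11.3 CPM in macrophages. H2-Oa, a chain of the DO molecule that restrains this exchange factor, was at 235 and 165 against 3.44 and 4.62 CPM. Its partner H2-Ob was at 56 counts in 31 ENPP1CKO barcodes and 24 counts in 18 control barcodes, a log2 ratio of 1.27 (0.56 to 2.03), and at 8.35 and 4.11 CPM in macrophages. Of 7 accessory genes compared, 5 were higher in ENPP1CKO, against 39.7% of all genes, and 2 lower, and only H2-Ob reached a 2-fold difference, as 3.21% of all genes did in this direction. The list's median log2 ratio was 0.29, against -0.13 over all 3304 genes compared.

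The promoters of these genes are shown because one short element recurs in most of them, 45 to 102 bases before the start. The letters TGATTGG, the Y box bound by NF-Y in the conserved class II promoter module, were searched on both strands in the 250 bases before each gene's start. They were present in 7 of the 8 class II genes of the H2 region that had a promoter sequence (87.5%), against 8.38% of 27025 genes, and H2-DMa was the gene without them. The motif was chosen after the sequences had been seen, and a match is a description, not a binding site. The promoters of 5 genes are given here 5′ to 3′ from RefSeq (GRCm38.p6, the mm10 build), with the element in capitals: H2-Aa (chr17:34287824-34288073, minus strand, element beginning 50 bases before the start), H2-Eb1 (chr17:34305617-34305866, plus strand, 61 bases), H2-DMb2 (chr17:34144999-34145248, plus strand, 92 bases), H2-Oa (chr17:34092129-34092378, plus strand, 45 bases) and H2-Ob (chr17:34238655-34238904, plus strand, 59 bases).
H2-Aa: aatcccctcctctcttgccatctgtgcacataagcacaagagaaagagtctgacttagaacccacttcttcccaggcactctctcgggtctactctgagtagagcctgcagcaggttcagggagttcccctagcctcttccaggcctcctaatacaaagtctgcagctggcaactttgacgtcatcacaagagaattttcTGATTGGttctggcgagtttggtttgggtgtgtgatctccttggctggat
H2-Eb1: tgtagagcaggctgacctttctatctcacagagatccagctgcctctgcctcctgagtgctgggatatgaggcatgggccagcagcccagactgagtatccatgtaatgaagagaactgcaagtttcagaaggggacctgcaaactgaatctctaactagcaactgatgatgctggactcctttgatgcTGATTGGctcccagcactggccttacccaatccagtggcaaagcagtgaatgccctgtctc
H2-DMb2: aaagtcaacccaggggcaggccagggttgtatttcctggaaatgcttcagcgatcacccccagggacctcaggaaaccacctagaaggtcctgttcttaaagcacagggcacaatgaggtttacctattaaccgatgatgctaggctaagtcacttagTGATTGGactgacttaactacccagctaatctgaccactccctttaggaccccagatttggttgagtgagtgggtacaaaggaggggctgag
H2-Oa: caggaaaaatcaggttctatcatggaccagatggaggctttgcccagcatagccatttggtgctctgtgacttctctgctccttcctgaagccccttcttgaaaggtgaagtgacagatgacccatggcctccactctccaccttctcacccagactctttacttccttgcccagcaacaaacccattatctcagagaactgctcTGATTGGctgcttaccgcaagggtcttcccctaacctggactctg
H2-Ob: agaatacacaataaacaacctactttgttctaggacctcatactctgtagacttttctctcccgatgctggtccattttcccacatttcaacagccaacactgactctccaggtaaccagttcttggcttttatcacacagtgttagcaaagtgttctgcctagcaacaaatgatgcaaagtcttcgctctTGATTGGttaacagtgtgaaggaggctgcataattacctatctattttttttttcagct

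Dendritic barcodes could be grouped by the rule gene they carried, and the sizes of these groups are a description, since the same genes chose the barcodes. No barcode of either library held both Xcr1 or Clec9a and Cd209a, although 38 barcodes had the former and 57 the latter. Taken in the order Xcr1 or Clec9a, then Ccr7, then Cd209a, the groups held 24, 11 and 19 of the 57 ENPP1CKO barcodes and 14, 25 and 26 of the 69 control barcodes, with 3 and 4 barcodes left that had only Flt3 or Zbtb46. The Xcr1 or Clec9a group was 42.1% (29.1 to 55.9) of ENPP1CKO and 20.3% (11.6 to 31.7) of control dendritic barcodes, and the Ccr7 group 19.3% (10.0 to 31.9) and 36.2% (24.99 to 48.7). The Cd209a group was similar in both, at 33.3% and 37.7%. Median depth within a group was close between libraries, 7114 and 7308 counts for Xcr1 or Clec9a and 4077 and 3773 for Ccr7. When every barcode was thinned to 1000 counts and the rule applied again, only 26 ENPP1CKO and 33 control members remained. Of these few barcodes the Xcr1 or Clec9a group was 30.8% and 6.06% and the Ccr7 group 23.1% and 39.4%. Expressed per library rather than per dendritic barcode, the Xcr1 or Clec9a group was 0.322% and 0.262% of all barcodes and the Ccr7 group 0.147% and 0.468%.

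**Figure D2:**
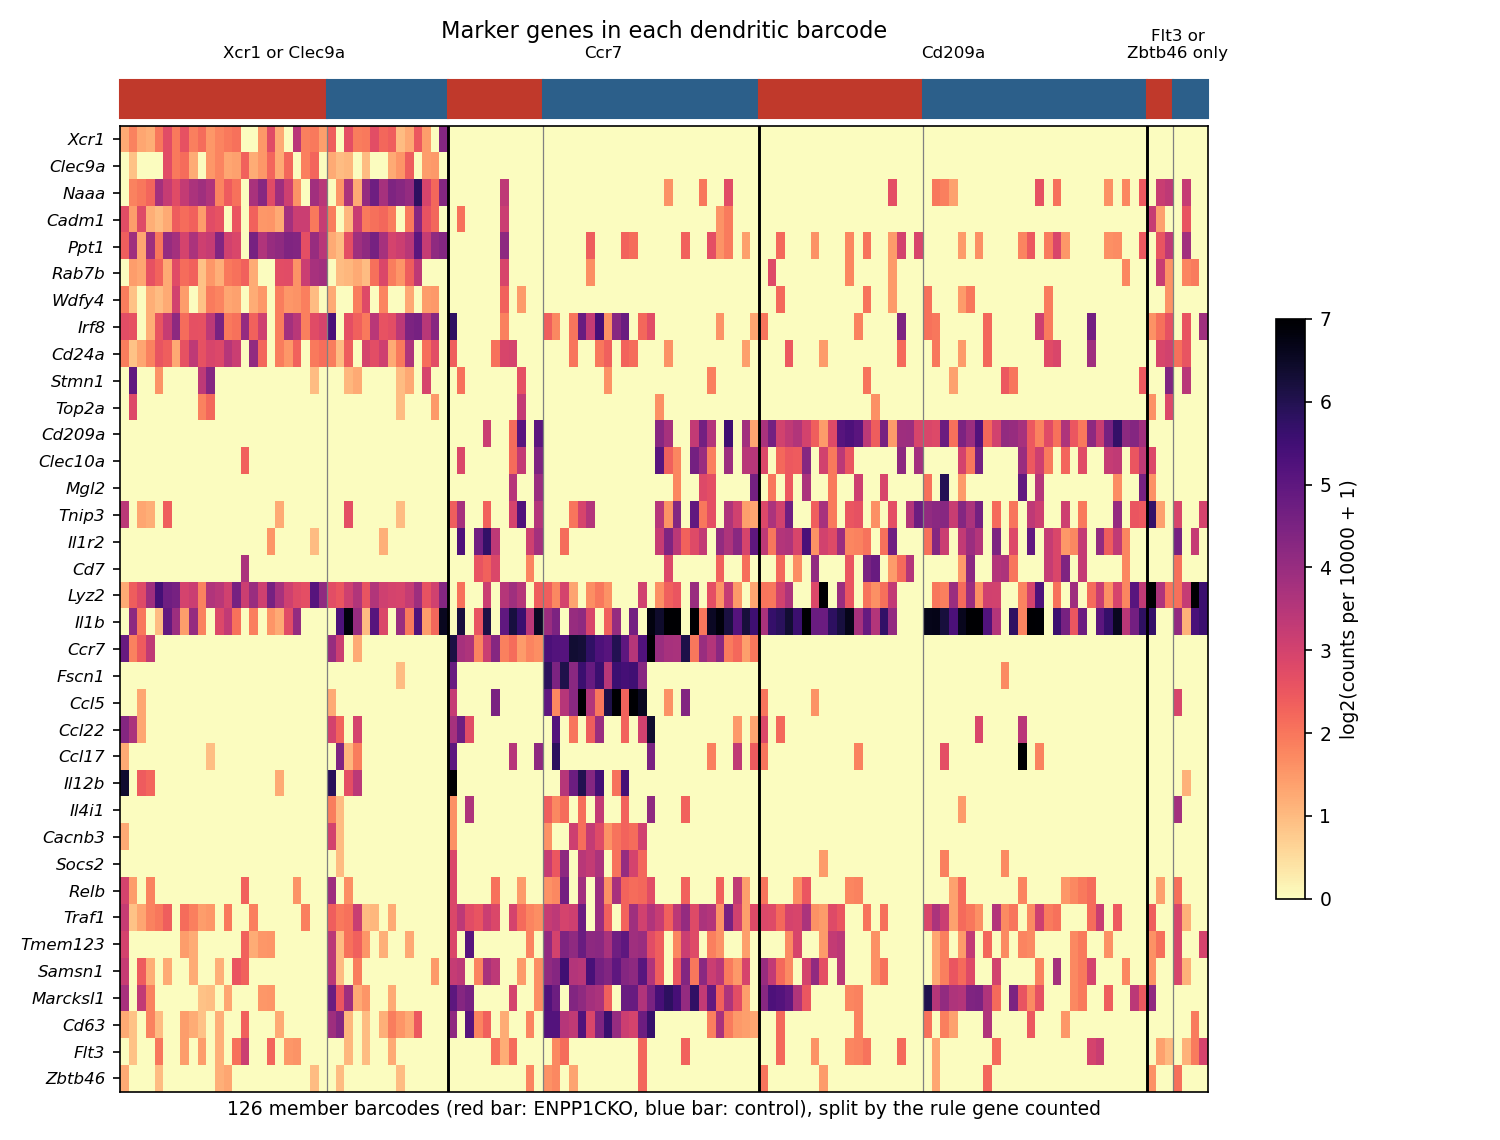
Counts per 10000, on a log2 scale after adding 1, of 36 genes (rows) in each of the 126 dendritic barcodes (columns), split by the rule gene counted, with a red bar for ENPP1CKO and a blue bar for control. Naaa, Cadm1 and Ppt1 fill the Xcr1 or Clec9a block, and Fscn1, Ccl5 and Socs2 a set of control barcodes in the Ccr7 block. Clec10a and Il1r2 lie in part of both the Cd209a and the Ccr7 block.

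Markers that the rule did not use also set the Xcr1 or Clec9a group apart, here with both libraries together. They separated the Cd209a and Ccr7 groups only in part. In the Xcr1 or Clec9a group Naaa, a lysosomal amidase, was at 961 CPM and counted in 34 of 38 barcodes, against 75.1 CPM in the Ccr7 and 75.0 CPM in the Cd209a group. Cadm1, an adhesion molecule of cDC1, was at 346 CPM in 33 of 38 barcodes and at 0 in the 45 barcodes of the Cd209a group. Ppt1, a lysosomal thioesterase, was in 37 of 38, and Cst3, the protease inhibitor cystatin C, was at 34320 CPM in this group against 11917 and 4409 CPM in the others. Naaa, Cadm1 and Ppt1 are all known as cDC1 genes. The Cd209a group carried Clec10a at 427 CPM and Mgl2 at 352 CPM, both galactose-binding lectins, and the decoy receptor Il1r2 at 773 CPM. In the Xcr1 or Clec9a group these stood at 3.64, 0 and 10.9 CPM. The Ccr7 group carried them too, at 471, 212 and 812 CPM, so Clec10a and Il1r2 did not separate it from the Cd209a group. Cd7, a membrane protein better known from T cells, was in 19 of 45 Cd209a, 7 of 36 Ccr7 and 1 of 38 Xcr1 or Clec9a barcodes. Fscn1 was at 1181 CPM in the Ccr7 group and Ccl5, a T cell attracting chemokine, at 2054 CPM, against at most 12 CPM in both other groups. The Ccr7 group was itself mixed, since 12 of its 36 barcodes also counted Cd209a and 13 counted Fscn1.

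Clustering of the members gave 4 clusters, whose genes are a description. One of 42 barcodes was led by Naaa, Ppt1, Rab7b and Xcr1 and was cDC1-like by 10 markers. It held 27 ENPP1CKO and 15 control barcodes, 47.4% (34.0 to 61.0) and 21.7% (12.7 to 33.3) of each library's dendritic barcodes. A cluster of 15 barcodes led by Fscn1, Ccl5, Il12b and Serpinb6b was mature DC-like by 19 markers and held 2 ENPP1CKO and 13 control barcodes, 3.51% (0.428 to 12.1) and 18.8% (10.4 to 30.1). The cDC2-like cluster, led by Mgl2, Tnfsf9, Hilpda and Clec10a, held 18 and 33 barcodes. At the higher resolution of 1 it split and no cluster could be given this name. One part, with 4 ENPP1CKO and 16 control barcodes, was led by Ifitm1, Ms4a6d and Ms4a4c. Its 2-fold markers included 3 monocyte genes (Ccr2, Ms4a4c and Fcgr1), 7 cDC2 and 3 macrophage markers. In the cDC2-like cluster Ms4a4c was in 29 of 51 barcodes and Irf4 in 3. Monocyte markers summed to 1282 and 1174 CPM over all dendritic barcodes (0.13, -0.08 to 0.33). The part of monocyte-type cells in this cluster was not tested. The last of the 4 clusters, with 10 and 8 barcodes, was led by Cd7, Dab2, Hist1h2bc and Ifitm6 and stayed unnamed. A second clustering left out the 425 genes that differed 2-fold or more between the libraries. Genes of the rule were left out only where they differed so, and the first clustering did not leave them out. The cDC1-like and mature DC-like clusters then kept the numbers of barcodes given above, and the rest formed 1 cluster.

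**Figure D3:**
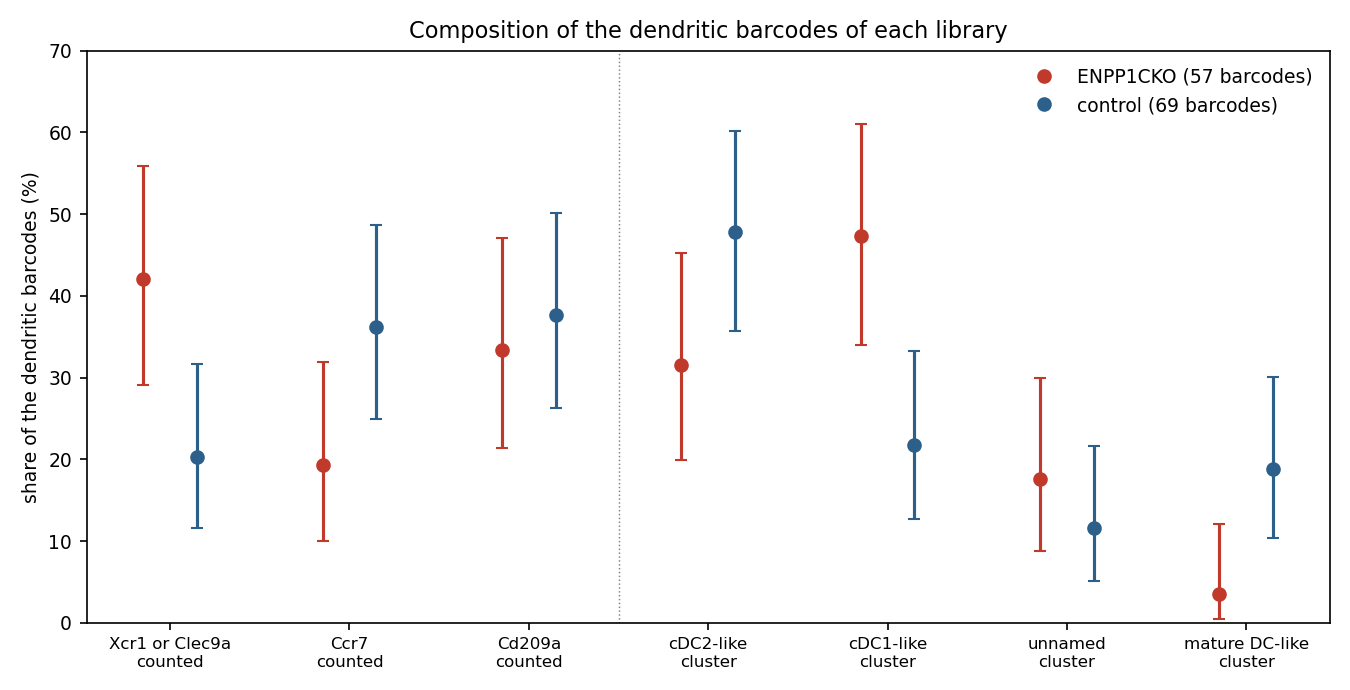
Share of each library's dendritic barcodes, in percent with exact 95% binomial intervals, by rule gene (left of the dotted line) and by cluster (right), red for the 57 ENPP1CKO and blue for the 69 control barcodes. The Xcr1 or Clec9a group was 42.1% against 20.3% and the mature DC-like cluster 3.51% against 18.8%, and the Cd209a intervals overlapped almost wholly.

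The libraries were then compared gene by gene over all dendritic barcodes, as summed counts, among genes outside the rule with 20 or more counts in both together. Of 3304 genes, 1312 (39.7%) were higher and 1992 (60.3%) lower in ENPP1CKO by any margin, and 106 (3.21%) were at least 2-fold higher and 315 (9.53%) at least 2-fold lower in ENPP1CKO, 12.7% in all. Their intervals excluded no difference for 71 (2.15%) and 227 (6.87%). Without the barcodes that counted Ccr7, 42 ENPP1CKO and 41 control barcodes remained, and 71 (2.85%) of 2491 genes were higher and 167 (6.70%) lower. These differences were also looked for in other cells of the same libraries. The shares that recurred in macrophages or in fibroblasts lay near or above those of all genes. Of the 106 higher genes 4 of 98 (4.08%) were 2-fold higher in macrophages too, against 2.14% of all genes, and 2 of 93 (2.15%) in fibroblasts, against 2.64%. Of the 315 lower genes 304 could be compared in macrophages and 11 of them (3.62%) were 2-fold lower there too, against 2.76% of all genes compared in macrophages, and 20 of 301 (6.64%) were so in fibroblasts, against 3.43%. Of 293 lower genes 5 (1.71%) were 2-fold lower in all 3 populations, and of 90 higher genes 1 (1.11%) was 2-fold higher. The matching shares over all genes are not given here, so these counts are a description. Among the 5 was Jund, an AP-1 subunit, at log2 ratios of -2.07, -1.97 and -1.69 in dendritic barcodes, macrophages and fibroblasts. Taf10, a general transcription factor subunit, was also among them, at -2.47, -1.65 and -1.66.

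**Figure D4:**
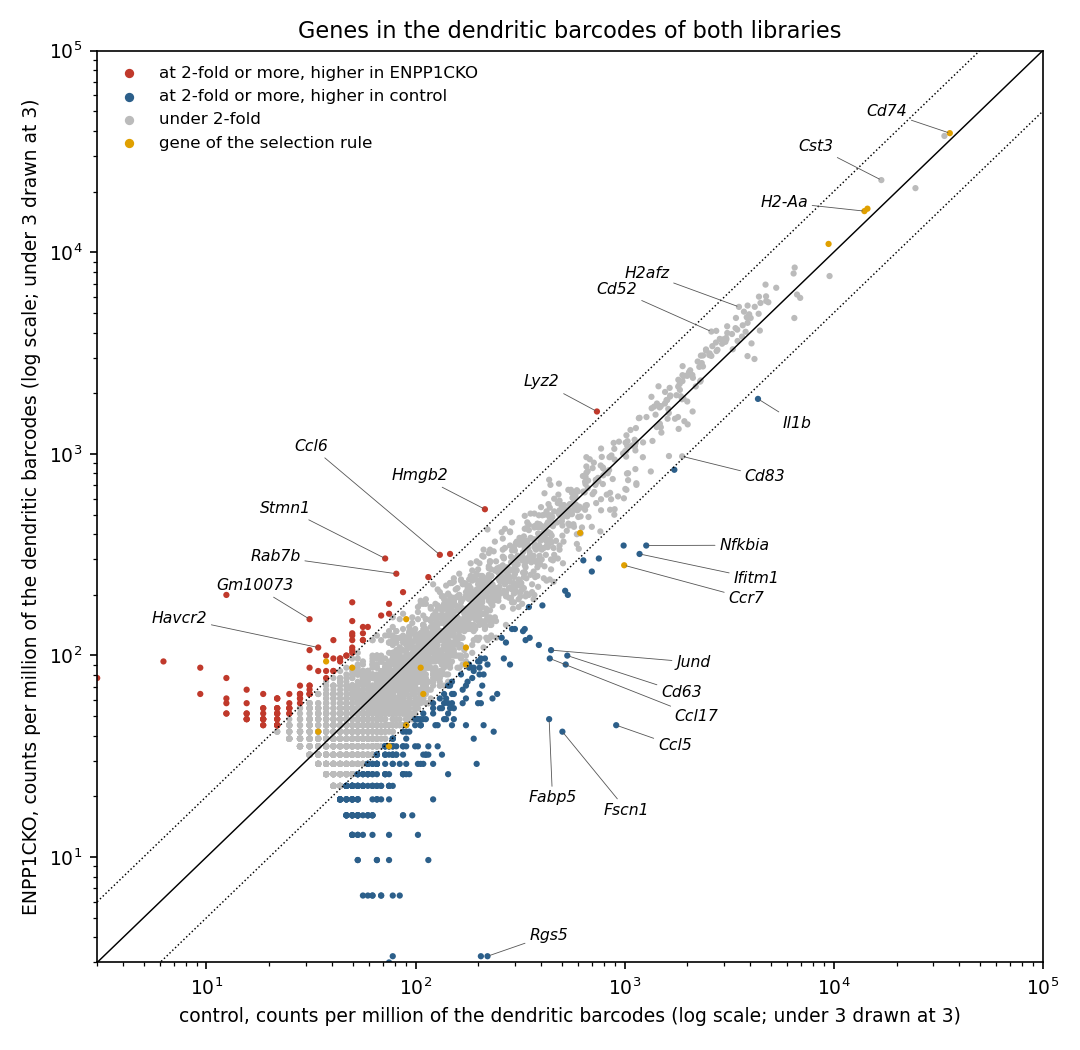
Each gene compared, as CPM over the dendritic barcodes of the control (x axis) and ENPP1CKO library (y axis), both on log scales, with dotted lines at 2-fold. Fscn1, Ccl5, Fabp5, Cd63 and Nfkbia lie far below the diagonal, Havcr2, Rab7b and Stmn1 above it, and the MHC class II genes of the rule (yellow) on it.

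Among the 20 lists on dendritic function and response, genes of dendritic maturation had the lowest summed and median ratio, although the mural markers given above lay lower. All 16 compared were lower in ENPP1CKO, against 60.3% of all genes, and 14 of them 2-fold or more, against 9.53%, with a median log2 ratio of -1.93. They summed to 1675 CPM in the ENPP1CKO and 5133 CPM in the control barcodes, a log2 ratio of -1.62 (-1.76 to -1.47), which was -0.69 (-0.93 to -0.44) without barcodes that counted Ccr7 and -0.998 (-1.34 to -0.66) after thinning to 1000 counts. Fscn1 was at 13 counts in 1 ENPP1CKO barcode and 162 counts in 14 control barcodes, 41.9 and 504 CPM. Only 1 ENPP1CKO barcode thus carried it, a share of 1.75% against 20.3% (1.75% and 16.2% after thinning to 1000 counts), while macrophages held it in 1.01% and 0.816%. Cd63, a tetraspanin of endosomes, was at 31 and 171 counts (log2 ratio -2.41, interval -3.02 to -1.86), and Socs2, an inhibitor of cytokine signalling, at 4 and 33 (-2.995, -4.95 to -1.50). Anxa3 was at 3 and 37 counts (-3.58, -5.92 to -1.92), Cacnb3, a calcium channel subunit, at 2 and 25 (-3.59, -6.72 to -1.59), and Cd200, a ligand that restrains myeloid cells, at 9 and 39 (-2.07, -3.30 to -0.997). Other members differed by smaller ratios. Marcksl1 was at 351 and 990 CPM (-1.50), Samsn1 at 200 and 535 CPM (-1.42), Tmem123 at 113 and 389 CPM (-1.79) and Relb, the NF-kB subunit that drives this programme, at 74.1 and 177 CPM (-1.26). The members that did not reach 2-fold were Traf1, a TNF receptor adaptor, at 73 and 136 counts (-0.85, -1.28 to -0.43) and Ccl22, at 47 counts in 8 and 65 counts in 14 barcodes (-0.42, -0.99 to 0.14). Macrophages and fibroblasts did not share the difference in Marcksl1 (0.23 and -0.12) or Cd63 (-0.26 and -0.13). The list summed to 2589 and 2625 CPM in macrophages and to 3149 and 3446 CPM in fibroblasts. Its summed level was thus not particular to dendritic barcodes.

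The maturation list was also summed within the rule-gene groups. In the Ccr7 group all 14 genes compared were lower in ENPP1CKO by any margin, with a median log2 ratio of -1.78. The matching share over all genes of this group is not given here, while 14.1% of 1015 genes were 2-fold lower. The summed level was 4061 CPM over 11 barcodes and 11516 CPM over 25 (log2 ratio -1.50, -1.74 to -1.28). Fscn1 was in 1 of the 11 and 12 of the 25 barcodes, and the same numbers lay in the mature DC-like cluster, while 5 and 11 lay in the cDC2-like cluster, so the group drew on the clusters in different proportions in the libraries. In the Xcr1 or Clec9a group the sum was 925 and 2016 CPM (-1.12, -1.43 to -0.82). However, 2 of the 14 control barcodes held 127 of its 203 counts, and 2 of the 24 ENPP1CKO barcodes 72 of 161. The control barcode with 41 of the 127 had the highest share of the rule's collagen genes and Dcn of any member, at 0.403%. Without those 4 barcodes the sums were 574 and 915 CPM (-0.67, -1.13 to -0.21), and without the control pair alone the log2 ratio was 0.02 (-0.39 to 0.43). In the Cd209a group it was 2268 and 2337 CPM, with an interval that spanned no difference (-0.04, -0.34 to 0.25).

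The summed cDC1 markers were higher and the summed cDC2 markers lower in ENPP1CKO. Of 10 cDC1 markers outside the rule 8 were higher in ENPP1CKO, against 39.7% of all genes, and 4 of them 2-fold or more, against 3.21%, with a median log2 ratio of 0.72 and summed levels of 2947 and 2076 CPM. Rab7b, a late endosomal GTPase, was at 79 counts in 27 and 26 counts in 14 barcodes (1.65, 1.00 to 2.35), Cadm1 at 76 and 37 counts (1.09, 0.50 to 1.70), and Wdfy4, which is needed for cross-presentation, at 37 and 18 (1.09, 0.24 to 1.99). Irf8, the lineage factor of cDC1, was nearly level at 509 and 539 CPM. Inside the Xcr1 or Clec9a group the sum was lower in ENPP1CKO, at 4210 and 4835 CPM (-0.20, -0.37 to -0.03). By gene, 6 of 9 were higher there, and the median was 0.12. The share and median over all genes of this group are not given here, so this count is a description. Of 8 cDC2 markers 2 were higher and 6 lower, against 60.3% of all genes lower, and 2 of those 2-fold or more, against 9.53%, with a median of -0.63. Mgl2 was at 25 and 68 counts (-1.39, -2.12 to -0.71) and Clec10a at 53 and 94 (-0.78, -1.29 to -0.28), whereas Tnip3 (380 and 414 CPM) and Cd7 (148 and 137 CPM) were close. Within the Cd209a group the cDC2 sums were 3535 and 3980 CPM (-0.17, -0.40 to 0.06). In the Ccr7 group they were higher in ENPP1CKO, at 3320 and 2570 CPM (0.37, 0.07 to 0.67). The Xcr1 or Clec9a group was at 184 and 159 CPM (0.21, -0.70 to 1.17). Barcodes with only Flt3 or Zbtb46 were at 1778 and 1164 CPM (0.61, -0.22 to 1.49). Of the plasmacytoid genes, Siglech was at 21 counts in 9 and 5 counts in 3 barcodes, and 1 barcode held 9 of the 21.

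Transcription factors of the lineage stood near each other. Of 14 compared, 8 were higher and 6 lower, against 60.3% of all genes lower, with a median log2 ratio of 0.08 and sums of 2541 and 2462 CPM. Spi1, which encodes PU.1, was at 380 and 262 CPM (0.54, 0.12 to 0.96), Id2 at 660 and 591 CPM, Batf3 at 99.8 and 65.4 CPM and Klf4 at 135 and 140 CPM. Relb and Zeb1 were the 2 that reached a 2-fold difference, both lower in ENPP1CKO, against 9.53% of all genes.

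Chemokine transcripts were lower in ENPP1CKO for 7 of 8 genes, against 60.3% of all genes, 3 of them 2-fold or more, against 9.53%, and summed to 1543 and 3163 CPM. Ccl5 was at 14 counts in 5 ENPP1CKO barcodes and 293 counts in 16 control barcodes, 45.1 and 912 CPM (log2 ratio -4.34, -5.23 to -3.57). Of these counts 11 and 290 lay in the Ccr7 group, so a small number of barcodes carried the gene. In macrophages the Ccl5 log2 ratio was -1.41 and in fibroblasts 0.80. Ccl17, the other CCR4 ligand beside Ccl22, was at 30 counts in 7 and 141 counts in 11 barcodes (-2.18, -2.80 to -1.61), but 77 of the control counts were in 1 barcode of the Cd209a group, and without it the log2 ratio was -1.06 (-1.74 to -0.42). Without the barcode with the most counts of each library, 15 and 64 counts remained (-2.04, -2.96 to -1.21). Cxcl2, a neutrophil attractant, was at 18 and 64 counts (-1.78). Ccl6 was the exception, at 98 and 42 counts, each in 20 barcodes (1.27, 0.74 to 1.83), and was higher in ENPP1CKO in the Cd209a group (972 and 254 CPM) as well as the Ccr7 group (404 and 128 CPM). Of the 98 counts 40 were in 1 Cd209a barcode, without which the log2 ratio was 0.54 (-0.06 to 1.15) over all dendritic barcodes, and 0.83 (0.20 to 1.49) when the top barcode of control was also left out. In the Ccr7 group 11 of 18 counts were in 1 barcode, and 180 CPM remained without it. Receptors for migration were lower for 8 of 9 genes, against 60.3% of all genes, and 2 of them 2-fold or more, against 9.53%: Gpr183, which guides cDC2 positioning, was at 15 and 34 counts (-1.13) and Itgax, which encodes CD11c, at 8 and 19 (-1.20, -2.60 to 0.06).

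Among 7 cytokines compared 3 were higher and 4 lower, near the 60.3% of all genes, and 2 were lower by 2-fold or more, against 9.53%. Il1b dominated the list with 582 counts in 41 ENPP1CKO and 1397 counts in 59 control barcodes, 1874 and 4349 CPM (-1.21, -1.36 to -1.07). Its level was lower in each group, at 563 and 2244 CPM for Xcr1 or Clec9a (461 and 1326 CPM without the top barcode of each library, which in control held 105 of 226 counts), 3590 and 5121 CPM for Ccr7 and 4211 and 6082 CPM for Cd209a, although in macrophages of the same libraries it stood the other way (0.38). Osm, an interleukin 6 family cytokine, was at 5 and 28 counts (-2.44, -4.17 to -1.05). Il12b was at 154 counts in 5 ENPP1CKO barcodes and 130 counts in 11 control barcodes (0.29, -0.05 to 0.64). The ENPP1CKO counts came from few cells, since 87 of them were in 1 barcode of the Ccr7 group, and the log2 ratio was -0.88 (-1.33 to -0.45) without it and -0.36 (-0.84 to 0.12) without the top barcode of each library. None of the Cd209a group's 45 barcodes counted Il12b. Of 14 cytokine receptors 3 were higher and 11 lower, against 60.3% of all genes lower, with a median of -0.51. Csf2rb, the shared beta chain of GM-CSF signalling, was at 64 and 42 counts (0.66, 0.07 to 1.25) and Il4ra at 7 and 20 (-1.47, -2.95 to -0.17).

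Costimulatory ligands were mixed. Of 15 genes 6 were higher and 9 lower, against 60.3% of all genes lower, and 1 and 5 of them 2-fold or more, against 3.21% and 9.53%. Cd83, which stabilises surface MHC class II, was at 302 and 606 counts in 54 and 65 barcodes (-0.96, -1.16 to -0.75), Cd80 at 28 and 58 (-1.002), Cd40 at 10 and 25 (-1.27) and the 4-1BB ligand Tnfsf9 at 12 and 61 (-2.30, -3.33 to -1.39). Cd86 differed less, at 85 and 108 counts (-0.30, -0.72 to 0.13). On the other side were Havcr2, the checkpoint receptor TIM-3 of cDC1, at 34 counts in 20 and 11 counts in 9 barcodes (1.68, 0.66 to 2.81) and the glycoprotein gene Cd52, at 1256 and 836 counts (0.64, 0.51 to 0.76). In the Xcr1 or Clec9a group alone Havcr2 was at 27 counts in 15 and 5 counts in 4 barcodes, and Cd52 was close, at 4279 and 4071 CPM. Cd52 was higher in ENPP1CKO in the Ccr7 (4061 and 1373 CPM) and Cd209a groups (3465 and 2308 CPM).

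Antigen processing genes of both compartments had medians a little below that of all genes (-0.13). In the lysosomal list 5 of 14 genes were higher and 9 lower, against 60.3% of all genes lower, with a median of -0.33, but the sum was higher in ENPP1CKO (28822 and 23636 CPM), and most of it was Cst3 at 22825 and 16925 CPM. Cst3 was nearly equal inside the Xcr1 or Clec9a group (33605 and 35556 CPM). Ctss, the protease that cleaves the invariant chain, was at 1401 and 2005 CPM (-0.52, -0.70 to -0.34) and Ctsh at 486 and 672 CPM (-0.47). Of 18 MHC class I genes 13 were lower, against 60.3%, and 5 higher, and 1 of the lower genes reached 2-fold, against 9.53%, with a median of -0.32. H2-K1 was at 664 and 1021 CPM (-0.62), B2m at 3533 and 4050 CPM (-0.20), the proteasome activator Psme2 at 287 and 507 CPM (-0.82), and the immunoproteasome subunit Psmb8 at 1034 and 1018 CPM (0.02).

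Proliferation genes were higher in ENPP1CKO, for 11 of 12 compared, against 39.7% of all genes, and 2-fold or more for 5 of them, against 3.21%. The median was 0.64 and the sums 8100 and 4884 CPM. Stmn1, a microtubule regulator, was at 94 counts in 9 and 23 counts in 12 barcodes (2.08, 1.41 to 2.81, at 1.46 without 1 barcode with 35 of the 94 and at 2.04 without the top barcode of each library), Hmgb2 at 165 and 69 (1.31, 0.89 to 1.73), and the histone variant H2afz at 1665 and 1133 (0.60, 0.49 to 0.71). Mitotic and replication genes were in few cells. Top2a was at 27 counts in 7 and 3 counts in 3 barcodes (3.22, 1.52 to 5.58), Birc5 at 29 counts in 5 and 2 counts in 2 (3.91, 1.92 to 7.02, and 3.27 without 1 ENPP1CKO barcode with 11 of the 29), and Rrm2, a subunit of ribonucleotide reductase, at 24 counts in 4 barcodes and at 0 in control, a log2 ratio of at least 3.05 with a floor of 3 counts over the control barcodes. At least 3 of 14 such genes were counted in 5 of 57 ENPP1CKO barcodes (8.77%, 2.91 to 19.3) and 2 of 69 control barcodes (2.90%, 0.353 to 10.1), at median depths of 10723 and 7372 counts. The sum was 9781 and 5203 CPM within the Xcr1 or Clec9a group (0.91, 0.77 to 1.05) and lower in ENPP1CKO within the Cd209a group (2972 and 3755 CPM).

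Of the inflammatory response genes, Nfkbia, the inhibitor induced by NF-kB, was at 109 counts in 29 and 408 counts in 57 barcodes (-1.86, -2.17 to -1.55) and was lower in ENPP1CKO in all 3 rule-gene groups (132 and 596, 763 and 1874, and 620 and 1408 CPM, with the first pair at 47.9 and 353 without the top barcode of each library), whereas in macrophages the ratio was -0.06. It belongs to the glucocorticoid-responsive list, in which 8 of 12 genes were lower, 3 by 2-fold or more, against 9.53% of all genes. The shares of lower genes in this list and in the interferon and immediate early lists lay near the 60.3% of all genes. Of 9 interferon-stimulated genes 6 were lower, with Ifitm3 at 303 and 524 (-0.74), and with Isg15 (34 and 27) and Bst2 (91 and 63) higher, although 1 barcode held 16 of the 34 Isg15 counts and without the top barcode of each library Isg15 was at 58.6 and 69.8 CPM. Immediate early genes were lower for 12 of 19, with Fos at 670 and 1009 CPM, Nr4a1 at 132 and 327 CPM and Fosb higher at 213 and 128 CPM. Of 8 p53 targets 7 were lower, against 60.3% of all genes, and Cdkn1a, the cell cycle inhibitor p21, was at 94 and 242 counts (-1.32, -1.67 to -0.97). With both libraries together Cdkn1a was at 117 CPM in the cDC1-like cluster, which held a larger share of ENPP1CKO dendritic barcodes. It was at 1021 CPM in the cDC2-like, 745 in the unnamed and 702 in the mature DC-like cluster. The part of this mix in its ratio was not tested.

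**Figure D5:**
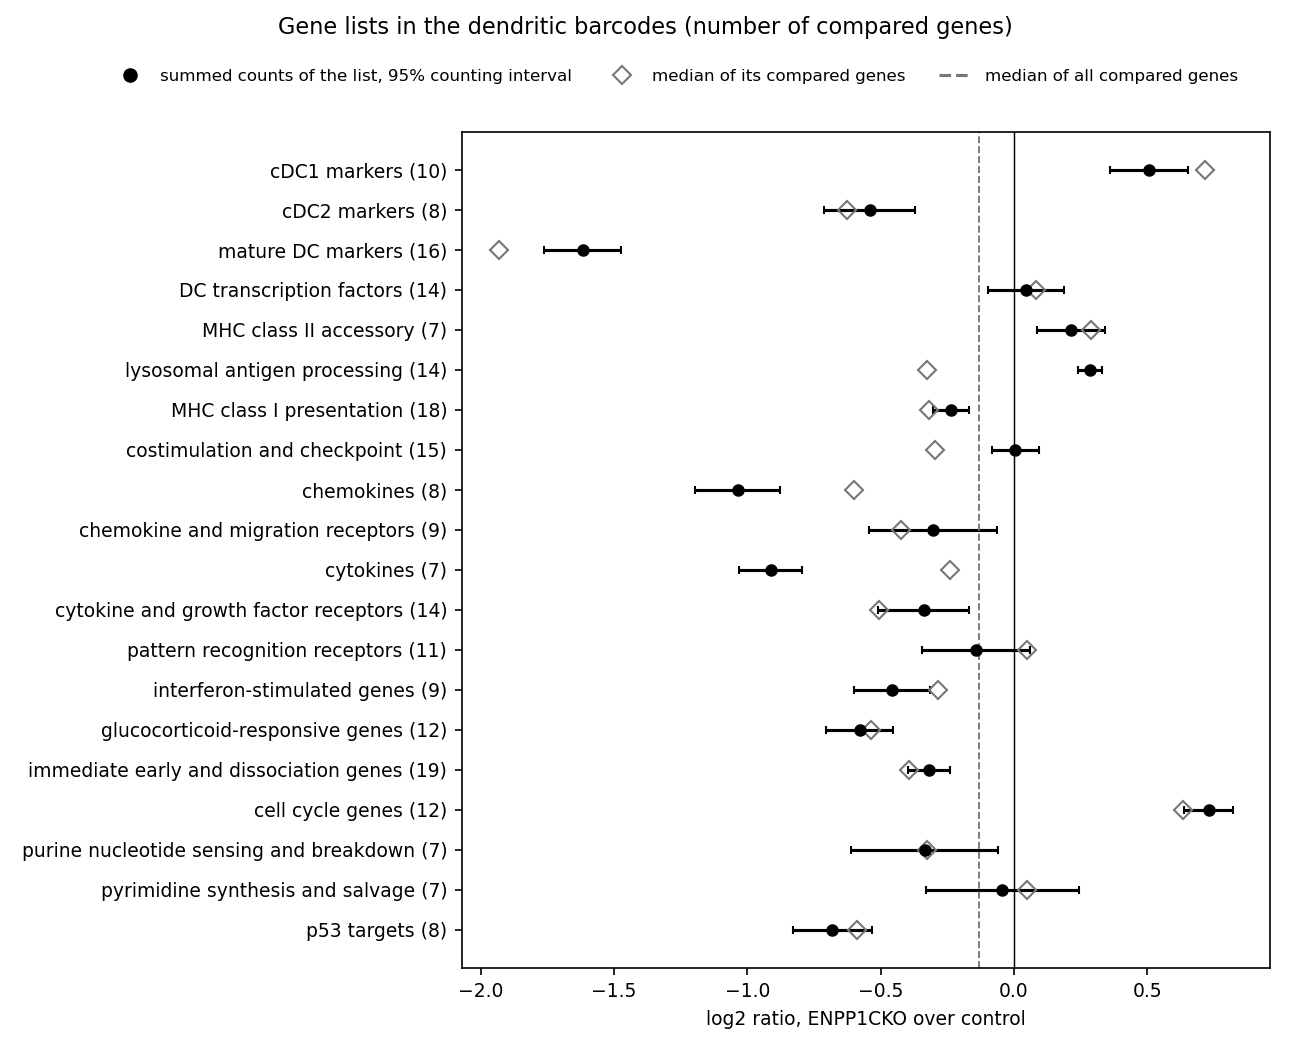
Log2 ratio of ENPP1CKO over control for 20 gene lists in the dendritic barcodes, with filled points for the summed counts and their exact 95% counting interval, open diamonds for the median of the compared genes (number in brackets) and a dashed line for all genes. Maturation genes lie lowest, at -1.62 for the sum, and cell cycle and cDC1 genes highest, at 0.73 and 0.51.

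Genes of nucleotide sensing and breakdown, the pathway of the deleted enzyme, were compared as well. Of 7 purine genes compared 6 were lower, against 60.3% of all genes, and 1 higher, and 0 reached 2-fold. P2ry10, a lysophospholipid receptor filed with the purinergic family, was at 119 and 137 CPM, the ATP-gated channel P2rx4 at 87.0 and 109 CPM, and P2ry14, the UDP-glucose receptor, at 96.6 and 52.9 CPM (0.87, -0.04 to 1.82). Adora2b, an adenosine receptor, was at 7 and 13 counts. Of 7 pyrimidine genes 4 were higher and 3 lower, again with 0 at 2-fold, and the median of 0.05 lay near that of all genes.

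Ranked genes had an interval that excluded no difference, 40 or more counts in 10 or more barcodes, and at most 25% in 1 barcode. Ccl5, Ccl17 and Stmn1, given above, did not meet the last limit. Within these limits the highest ratios in ENPP1CKO belonged to Gm10073 (47 and 10 counts), Havcr2, Rab7b, Sept3 (46 and 16), Ppfibp2 (37 and 13), Ubfd1 (31 and 12), Me2 (40 and 16), Camk1d (39 and 16), Hmgb2 and Znrd1 (43 and 18). Gm10073, a predicted gene whose reads may be shared with near-identical copies, was also higher in macrophages (1.06) and fibroblasts (0.86). The lowest were Fscn1, Anxa3, Fabp5, Ms4a6d, Ramp3, Taf10, Cd63, Tnfsf9, Glipr2 and Cd200. Fabp5, a fatty acid binding protein, was at 15 and 140 counts (-3.17), of which 9 and 116 were in the Ccr7 group. Ms4a6d was at 6 and 39 counts and Ramp3, a receptor activity modifying protein, at 13 and 76. Lyz2 and Ifitm1, abundant genes outside this ranking, were chosen after their values were seen. Lyz2, the myeloid lysozyme, was at 504 and 237 counts (1.14) and was higher in ENPP1CKO in the Xcr1 or Clec9a group (1396 and 735 CPM), against -0.30 in macrophages. In the Cd209a group it was at 1958 and 655 CPM, but 114 of the 139 ENPP1CKO counts were in 1 barcode, and without it the ENPP1CKO level was 383 CPM, against 529 CPM in control without its own top barcode (-0.47, -1.22 to 0.25). Of all 504 ENPP1CKO counts of Lyz2, 114 were in that barcode and 89 in another, chosen on 1 count of Zbtb46. The overall Lyz2 ratio thus rested in part on these barcodes. Ifitm1 was at 99 and 379 counts (-1.89), with 35 and 223 of them in the Cd209a group.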

How the data were processed

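Nonmyocytes of injured hearts were profiled by droplet single-cell RNA sequencing, with 1 library of each genotype. According to the submitters' processing notes the authors used Cell Ranger and STAR 2.5.3a on mm10. The deposited values are whole-number counts per gene and barcode, without normalisation, for 31053 genes, of which 30934 had a symbol in GENCODE M21. All barcodes were kept and the rule was applied to each. Counts were summed over members, scaled to CPM of the members, and compared among genes with 20 or more counts; 2-fold was a log2 ratio of 1. No test was possible with 1 library per genotype. Members were clustered with scanpy 1.11.5 and leidenalg 0.10.2 at resolution 0.5. Shares have Clopper-Pearson, ratios conditional binomial intervals (scipy 1.17.1), for counting error only. The ratio intervals were checked on simulated counts summed per library, and the share intervals were not. That simulation had no barcodes, so it cannot cover genes whose counts gather in few barcodes. The members, gene lists and motif were chosen with earlier results of these data known. Named genes were the rule genes, the 10 highest and 10 lowest ratios, up to 4 by ratio and 4 by level per list, cluster genes and the 20 highest over macrophages. The 10 highest and 10 lowest had 40 or more counts, 10 or more barcodes, none with over 25% of the counts, and an interval that excluded no difference. The 35 bulk libraries were not used here.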

Additional observations from a re-analysis of the deposited data

How the results depend on the processing

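No paired analysis was possible because each genotype had 1 library and no test was run. Directions between the libraries were kept by all 20 ranked genes in every alternative that gave a value. Of 230 such values 210 stayed within the first interval, 20 lay outside it in the same direction and 222 stayed at or beyond 2-fold. These genes were picked for extreme ratios in mostly the same barcodes. Their kept direction was thus close to fixed in advance and supports nothing. Of 289 values of the lists' sums or medians, other than the sums given next, 225 were not moved and 28 took another sign, among them the sum of the MHC class II accessory genes (0.21, but -0.03 thinned to 1000 counts and -0.02 without barcodes that counted Ccr7). With no complement count allowed, 29 ENPP1CKO and 26 control members remained, the dendritic shares were 0.389% and 0.486%, and 180 genes were 2-fold lower. The cDC1, cDC2, maturation and cell cycle sums were at 0.93, -0.84, -2.54 and 0.97. Of these few members the Xcr1 or Clec9a group and the cDC1-like cluster were each 11.5% of control, and the mature DC-like cluster was 0% of ENPP1CKO. With barcodes thinned to 1000 counts, 26 and 33 members remained and the shares were 0.376% and 0.674%. Among 410 genes compared 12 were higher and 33 lower (0 and 14 of them also 2-fold in the same direction at full depth). The same 4 sums were at 0.73, -0.76, -0.998 and 0.90, and the Xcr1 or Clec9a and Cd209a groups were 6.06% and 54.5% of control. The cDC1-like and cDC2-like clusters could not be named there. Without barcodes that counted Ccr7, an alternative chosen after seeing the data, 167 genes were lower and the cDC1, cDC2 and maturation sums were at 0.29, -0.77 and -0.69. With each barcode weighted equally the cDC2 and cell cycle sums were at -0.22 and 0.48. Without the ENPP1CKO barcode with the most counts of each, also left out after seeing the data, the maturation and cell cycle sums were at -1.79 and 0.61 and Lyz2 in the Cd209a group at -0.78 (-0.47 when the top barcode of control was left out too). A minimum of 5 counts gave 632 (8.89%) higher and 1191 (16.8%) lower of 7109 genes, and one of 50 counts 25 (1.58%) and 93 (5.87%) of 1584. Without members with 10 or more mural or endothelial counts, 56 and 65 remained, and 102 of 3132 genes were higher and 259 lower. Without members with a count of T cell, endothelial or neutrophil genes, 56 and 67 remained, and 106 of 3163 genes were higher and 266 lower. The denominator of barcodes with a count of Ptprc, also chosen after seeing the data, turned the log2 ratio of shares to 0.23. The cause of these shifts was not tested, beyond the fewer genes that a stricter minimum or thinner counts leave. A count of 1 decided membership for 8 and 10 barcodes, and differences between hearts cannot be told apart from differences between libraries.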

Other observations

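Barcodes that met every criterion except a count of a dendritic gene, 48 in ENPP1CKO and 66 in control, were not counted as dendritic barcodes. Their cDC1 marker sums were 1515 and 945 CPM, against 2947 and 2076 CPM in the dendritic barcodes, and their macrophage marker sums 12598 and 10316 CPM, against 805 and 1289 CPM. Their maturation marker sums were 2296 and 1781 CPM, higher in ENPP1CKO, against 1675 and 5133 CPM in the dendritic barcodes. Ccl17 was at 0 counts in ENPP1CKO and 80 counts in control among them. Their median depths were 2964 and 3259 counts.

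Fabp4, which carries fatty acids and is listed here with the endothelial markers, was at 57 counts in 12 ENPP1CKO and 16 counts in 6 control dendritic barcodes (log2 ratio 1.88, 1.06 to 2.78), but 40 of the 57 were in 1 barcode, and the log2 ratio was 0.17 (-0.91 to 1.25) without it and 1.33 (-0.01 to 2.84) without the top barcode of each library. It was higher in ENPP1CKO in macrophages (2.81) and fibroblasts (2.17).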
